A study of Mus musculus with 6 samples.

Results

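The genes described here are immediate early transcription factors, Krüppel-like factors (KLF), dual-specificity phosphatases (DUSP) and related feedback and stress genes, in injured mouse kidney with and without an inhibitor of HIF prolyl hydroxylases. They were chosen by gene symbol from the deposited table, in which 54 of 7340 genes matched. The symbols cover Fos, Jun, Egr, Atf3, Ier, Klf, Dusp, Btg, Nr4a, Zfp36, Maff, Mafk, Srf, Arc, Gadd45, Sgk1, Errfi1, Spry, Spred, Rgs and Csrnp genes. The mouse annotation holds 106 protein-coding symbols of this kind, and the 52 outside the table, among them Jund, Klf4, Klf5, Dusp4, Rgs1 and Srf, were not analysed here. RNA was sequenced from 6 kidney samples labelled wild type (WT), 3 after ischaemia-reperfusion injury (IRI), a temporary loss of blood flow to the organ, and 3 with IRI plus MK-8617 (MK8617 in the labels). The libraries are called IRI 1 to IRI 3 and MK 1 to MK 3 here. The labels of MK 2 and MK 3 name the agent MK8618 and MK8619 in 1 field and MK8617 in the title, and the title was followed. Neither strain, age, dose nor time after injury is given in the labels, although the deposited column names carry the tag IRI1d. Uninjured and drug-only kidneys were not analysed here, and each difference lies between injured kidneys. The design text calls the samples tumors, while the labels name kidney. Kidney markers were present, with 21674 to 50299 normalised reads of Umod, a loop of Henle gene, in each library.

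Immediate early genes are transcribed within minutes of a stimulus without new protein synthesis, through serum response factor (SRF), its ternary complex partners and CREB acting on promoters that are already open. Their products are mostly transcription factors, such as the AP-1 and EGR proteins, and their mRNAs are short-lived. The same signals induce their own brakes, which include DUSP phosphatases that inactivate MAP kinases, Sprouty and SPRED proteins that dampen receptor tyrosine kinase signalling, and ZFP36 proteins that destroy AU-rich mRNAs. In kidney, ischaemia and reperfusion are classical inducers of Fos, Jun, Egr1 and Atf3 in tubular cells.

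Every gene in the table has a p-value below 0.05 in the authors' own comparison, so all members had been selected for a difference between these same groups. Values are read counts that the authors divided by a size factor per library, called normalised reads here, and the library totals were 16835541 to 19508497 reads. A gene was called changed at a Benjamini-Hochberg adjusted p below 0.05 in limma on log2(normalised reads + 1). The labels do not say whether replicates are separate animals, and a p-value here therefore reflects only the scatter among these libraries, possibly a technical one. In whole kidney RNA, fewer cells of a type and less RNA per cell cannot be told apart.

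Members were mostly higher with MK-8617. All 54 members passed the filter on low counts, and 49 of them had a positive log2 fold change, or 90.7%, against 47.7% of the 6961 listed genes that were tested. In the limma test 37 members rose and 4 fell, while 13 were not past the threshold. Calls in either direction covered 75.9% of members and 74.3% of all tested genes, a share near that of the table. Calls for a rise covered 68.5% of members and 35.7% of tested genes, and calls for a fall 7.41% and 38.7%. The median log2 fold change was 0.68 over the members and -0.31 over all tested genes. The groups did not overlap in 46 members (85.2%), against 92.5% of tested genes. They were apart with the treated libraries higher in 41 of all 54 members, against 3120 of all 6961 tested genes (44.8%). These shares describe the table's genes and were not tested against each other. The authors' deposited table gives an adjusted p below 0.05 for 41 of the members with a rise and 4 with a fall. The share of all listed genes past that adjusted p was not computed, so this count has no background. The 37 rises became 23 without MK 1 and 24 without MK 3, and ranged from 26 to 39 without any other library. Cell type markers moved between the same groups. Of 6 listed mural and fibroblast markers 5 fell and 1, Dcn, rose, the 6 cycling and both neutrophil markers fell, both podocyte markers rose, and none was at 0 in a library. Some of these calls were lost when 1 library was left out, with the log2 fold change then in brackets. Such fits have fewer samples, and calls over all genes went from 5173 to between 3412 and 5144 in them. Cycling markers were uneven in IRI, with Mki67 at 74.8, 761 and 117 normalised reads in IRI 1 to 3. S100a9 was not called without MK 1 (-1.10) or MK 3 (-1.12), nor S100a8 without IRI 1 (-1.39), IRI 2 (-1.11), MK 1 (-1.06) or MK 3 (-1.08). Among cycling markers Birc5 was lost without MK 1 (-2.77), MK 2 (-2.27) or MK 3 (-2.60), Ccnb1 without IRI 2 (-1.63), MK 1 (-2.23) or MK 2 (-2.16), Ccna2 without MK 2 (-2.29) or MK 3 (-2.63) and Mki67 without MK 1 (-2.99) or MK 3 (-3.20). Dcn was lost without MK 1 (0.72) or MK 3 (0.78), Tagln without IRI 1 (-1.62) or MK 3 (-1.77) and the podocyte gene Nphs1 without MK 1 (0.38). With all libraries kept, Mki67, Birc5, Ccnb1 and Ccna2 were not called in limma-voom, and Ccnb1 was also not called with FPKM. S100a8 was not called with edgeR under either scaling or with FPKM. With length and GC trends removed, S100a8 (-0.95), S100a9 (-0.87) and Dcn (0.40) were not called. Tubule markers moved in both directions. Slc22a8, a proximal tubule transporter, rose by 1.85 ± 0.15 on the log2 scale, and Slc5a2 was not past the threshold (0.73 ± 0.24). Of 4 loop and distal tubule markers Pvalb rose (2.65 ± 0.50), Slc12a1 fell (-1.70 ± 0.21), and Calb1 and Umod were not past the threshold. Of 4 collecting duct markers Atp6v1g3 (-1.26 ± 0.20) and Slc4a1 (-1.72 ± 0.40) fell, the latter a call lost without MK 3 (-1.48), and 0 rose. The part of a changed cell composition in the members' values was not tested.

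**Figure D1:**
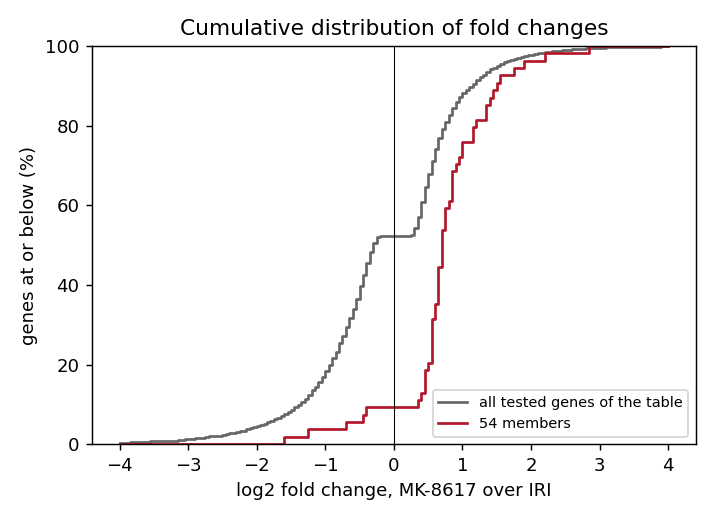
Cumulative percentage of genes (vertical axis) at or below each log2 fold change of MK-8617 over IRI (horizontal axis, shown from -4 to 4), for the 54 members and for all 6961 tested genes of the table. The members' curve lies to the right, with a median of 0.68 against -0.31, and both curves are flat near 0.

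Promoter sequences are shown for members that rose and whose upstream DNA matches a search motif for CREB, SRF or AP-1, factors named above. The CREB and SRF motifs are the textbook entry points of the early response. RefSeq promoters (GRCm38.p6) were matched by symbol for 45 of the 54 members, 1 per gene. The 250 bases before the RefSeq start were searched on both strands. The cyclic AMP response element TGACGTCA, bound by CREB, lay in 3 of 45 member promoters (6.67%), those of Btg2, Dusp1 and Dusp8, in 2.48% of 5201 listed genes with a promoter and in 1.61% of 27025 mouse promoters. The CArG box, the SRF site, lay in 2 (4.44%), those of Dusp5 and Zfp36, in 1.29% of listed genes and in 1.4% of all promoters. The AP-1-like pattern TGANTCA, with any base at N, lay in 2 (4.44%), in 5% of listed genes and in 6.84% of all promoters. The 2 matches read TGAATCA in Klf9 and TGATTCA in Zfp36l1, and neither has the C or G of the usual AP-1 site at N. The CREB and AP-1 motifs differ in length and neither contains the other. No promoter was matched for Arc, Dusp9, Egr1, Egr3, Fosl1, Ier2, Ier3ip1, Klf10 and Zfp36l2. In the sequences below, written 5′ to 3′ and ending at the base before the start, capitals mark these motifs.
Btg2, chr1:134079156-134079405, minus strand: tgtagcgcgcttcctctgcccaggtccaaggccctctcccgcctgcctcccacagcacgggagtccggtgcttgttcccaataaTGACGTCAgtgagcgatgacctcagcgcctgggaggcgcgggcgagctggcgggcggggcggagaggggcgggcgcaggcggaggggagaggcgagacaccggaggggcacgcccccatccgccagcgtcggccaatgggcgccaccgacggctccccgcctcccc
Dusp1, chr17:26508473-26508722, minus strand: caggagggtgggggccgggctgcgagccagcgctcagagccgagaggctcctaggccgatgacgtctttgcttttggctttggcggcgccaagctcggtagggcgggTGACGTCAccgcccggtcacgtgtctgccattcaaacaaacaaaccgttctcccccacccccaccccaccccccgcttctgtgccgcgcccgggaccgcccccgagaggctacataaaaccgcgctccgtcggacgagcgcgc
Dusp5, chr19:53528895-53529144, plus strand: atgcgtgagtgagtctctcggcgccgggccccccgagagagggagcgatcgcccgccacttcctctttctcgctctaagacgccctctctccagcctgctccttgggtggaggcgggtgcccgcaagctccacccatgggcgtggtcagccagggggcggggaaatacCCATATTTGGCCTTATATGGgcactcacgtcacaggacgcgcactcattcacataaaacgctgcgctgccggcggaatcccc
Zfp36, chr7:28379229-28379478, minus strand: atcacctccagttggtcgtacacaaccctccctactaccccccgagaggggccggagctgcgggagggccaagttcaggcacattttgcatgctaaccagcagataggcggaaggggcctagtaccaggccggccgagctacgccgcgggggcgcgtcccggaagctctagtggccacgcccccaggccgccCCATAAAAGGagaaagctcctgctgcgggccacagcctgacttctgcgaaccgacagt
Zfp36l1, chr12:80113014-80113263, minus strand: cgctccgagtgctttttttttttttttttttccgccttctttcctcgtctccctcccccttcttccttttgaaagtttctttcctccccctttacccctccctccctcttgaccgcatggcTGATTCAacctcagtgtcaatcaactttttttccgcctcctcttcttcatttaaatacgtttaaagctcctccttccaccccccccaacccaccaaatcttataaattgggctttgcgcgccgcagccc
The capitals in Btg2 begin 166 bases before the start and those in Dusp1 143 bases before it, and both are the full CREB palindrome. Dusp5 carries a pair of adjoining CArG boxes that begin 82 and 72 bases before the start, and Zfp36 carries a single box 58 bases before it. In Zfp36l1 the AP-1-like letters begin 129 bases before the start. Each start is the RefSeq one, which lay 53656 bases from the GENCODE gene start for Dusp1 and 1025 bases from it for Zfp36. For Btg2, Dusp5 and Zfp36l1 the distance was 35, 36 and 0 bases. The promoter of Junb (chr8:84978749-84978998, minus strand) held none of the 3 motifs in this window.

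The hypoxia response element core is the other motif of interest, since MK-8617 acts on the HIF pathway. Its form ACGTG lay in 13 of 45 member promoters (28.9%), against 21.4% of listed genes and 16.5% of all promoters. Its form GCGTG lay in 20 (44.4%), against 43.9% and 28.3%. Member promoters were rich in G and C, with a median of 62.4% against 52% over all promoters, and such short motifs also occur by base composition. These matches are letters in a window and say nothing of binding.

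Egr1, Btg2 and Junb rose with no overlap between the groups. Egr1 encodes a zinc finger transcription factor (ENSMUSG00000038418, GRCm38 chromosome 18, 34859823 to 34864984). The normalised reads were 903, 730.5 and 1089.9 in IRI 1 to 3 and 2316, 2050.2 and 3194 in MK 1 to 3, the order used throughout. Its lowest treated library was above its highest IRI library, and the log2 fold change was 1.47 ± 0.19 (SE), with a limma adjusted p of 0.000897. Btg2 encodes an antiproliferative protein that recruits mRNA deadenylases (ENSMUSG00000020423, GRCm38 chromosome 1, 134075170 to 134079120). It had 1245, 1095 and 1299.9 normalised reads with IRI and 3092, 2456 and 4661 with MK-8617, a log2 fold change of 1.44 ± 0.21 (adjusted p = 0.00146 in limma). The groups were apart, and MK 3 was the highest library for both genes. Junb encodes an AP-1 subunit (ENSMUSG00000052837, GRCm38 chromosome 8, 84974484 to 84978718). Its IRI libraries were nearly level at 1663, 1670.5 and 1649 normalised reads, and the treated ones had 3385, 2711 and 3126. The log2 fold change was 0.88 ± 0.11 with a limma adjusted p of 0.000663. All 3 genes kept their call in each of 19 alternative settings, with log2 fold changes of 1.28 to 1.61 for Egr1, 1.19 to 1.65 for Btg2 and 0.8 to 0.97 for Junb.

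**Figure D2:**
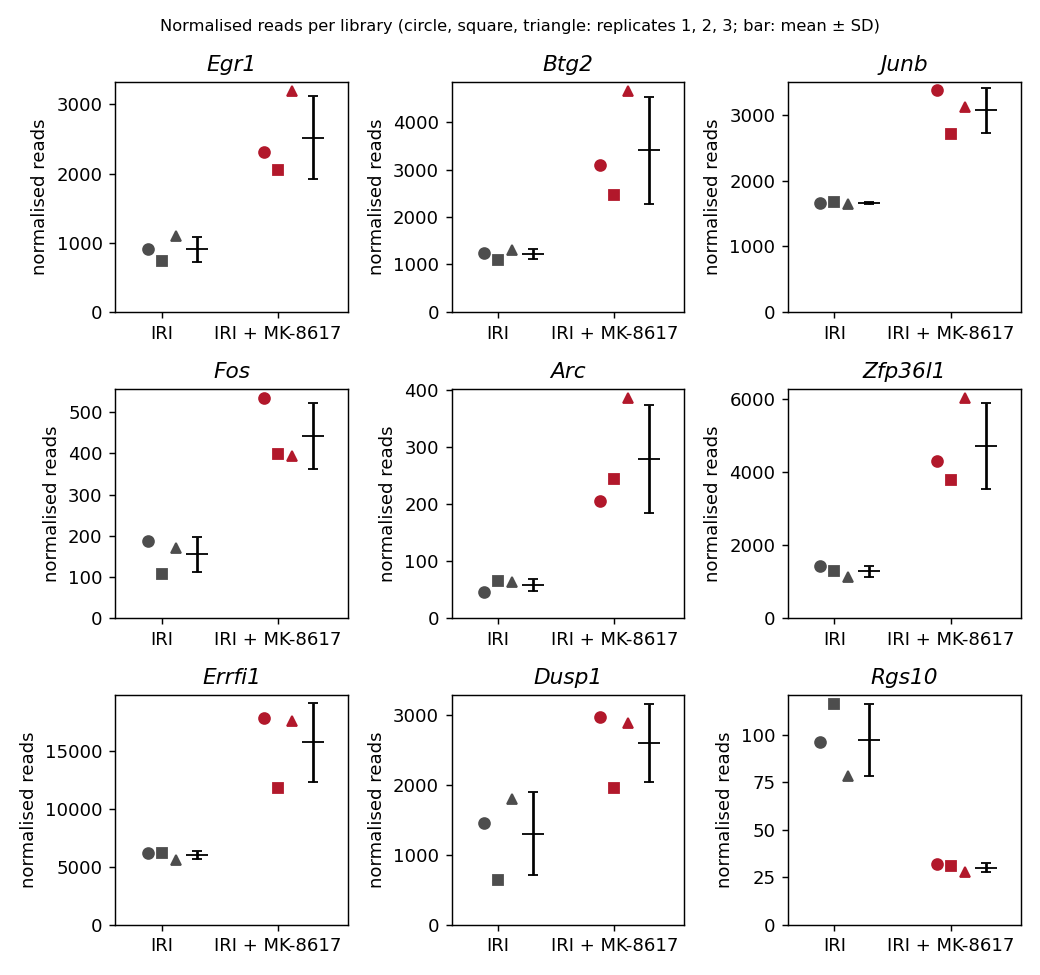
Normalised reads (vertical axes, from 0) of 9 members in each library, with IRI in grey, MK-8617 in red, marker shape for the replicate number and a bar for the mean ± SD of 3 libraries. Treated libraries lie above every IRI library in the first 8 panels and below them for Rgs10.

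AP-1 is a dimer of FOS and JUN family proteins, and small MAF proteins are related partners. Of 8 listed members 7 rose, 0 fell, and the median log2 fold change was 1.05. Fosb rose most, from 33.1, 37.3 and 59.4 to 148, 125 and 157 normalised reads (1.74 ± 0.27, adjusted p = 0.00211 in limma). Fos went from 187, 107 and 172 to 536, 399 and 393, a log2 change of 1.53 ± 0.23. Both genes had separate groups, at low levels in IRI. Fosl2 had 1099, 892 and 1308 normalised reads with IRI and 2564, 1852 and 3012 with MK-8617, a log2 fold change of 1.16 ± 0.19. Jun, the most highly counted of the group, had 2310.3, 1793 and 2275 against 3342, 3052 and 3659, a log2 fold change of 0.66 ± 0.13. Per transcript length the order differed: Junb stood at 40.6 ± 0.406 FPKM (SD, n = 3) and Jun at 37.5 ± 5.11 FPKM in IRI, while Fosb was at 0.39 ± 0.126. Maff, a small MAF protein, rose by 1.31 ± 0.19 on the log2 scale.

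Fosl1, which encodes FRA-1, rose by 0.95 ± 0.29 (adjusted p = 0.0409 in limma), and its IRI libraries were uneven at 987, 550.1 and 1397 normalised reads against 2106, 1456 and 1774 with MK-8617. Its call was lost without IRI 1 (1.00), IRI 2 (0.58), MK 1 (0.82), MK 2 (1.08) or MK 3 (0.94), and also with edgeR under either scaling, with FPKM, and among genes of at least 5 CPM. Exons of Ccdc85b on the opposite strand cover 57.2% of the exon bases of Fosl1, and since no strand-specific counting is stated, reads of these genes cannot be told apart. Atf3, a stress-induced member, was not past the threshold, at 0.51 ± 0.20 (adjusted p = 0.0932 in limma), with 511, 333 and 425 normalised reads in IRI and 529, 512 and 772 with MK-8617. Its groups did not overlap, but MK 2 was almost level with IRI 1.

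EGR and NR4A factors and neighbouring early genes included the largest changes by fold. Of 7 members 6 rose and 0 fell, with a median log2 fold change of 1.3. Egr3, a zinc finger factor related to Egr1, had 4.73, 14.6 and 5.75 normalised reads in the IRI libraries and 61.5, 39.5 and 85.1 in the treated ones (2.83 ± 0.48 on the log2 scale, adjusted p = 0.00298 in limma). Its IRI libraries hold few reads, so the size of this fold is imprecise, although the groups were apart. Arc, which is best known as a synaptic immediate early gene, had 46.4, 65.6 and 63.3 against 206, 243 and 385 normalised reads (2.20 ± 0.27, adjusted p = 0.000704 in limma). Nr4a1, an orphan nuclear receptor also called NUR77, rose by 0.83 ± 0.24, from 343, 249 and 300.0 to 705, 351 and 579.5 normalised reads. MK 2 lay just above the highest IRI library. Its relative Nr4a3 was at the edge of detection, with 11.4, 12.8 and 8.63 against 20.5, 36.3 and 29.8 normalised reads and a log2 fold change of 1.30 ± 0.38. Csrnp1, a nuclear protein induced by AXIN1, rose by 0.98 ± 0.28, from 473 ± 161 to 917 ± 256 normalised reads (SD, n = 3). Egr2 was not past the threshold (0.60 ± 0.23, adjusted p = 0.0814 in limma), and its groups overlapped.

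Without MK 3 the rises of this group numbered 3. Egr1, Egr3 and Arc kept their calls in every setting in which they were tested. The call of Nr4a1 was lost without IRI 2 (0.71), IRI 3 (0.84), MK 1 (0.61) or MK 3 (0.75), that of Nr4a3 without IRI 1 (1.34), IRI 3 (1.16), MK 2 (1.13) or MK 3 (1.26), and that of Csrnp1 without IRI 2 (0.66), MK 1 (0.93) or MK 3 (0.79). With FPKM in place of normalised reads these 3 genes were also not past the threshold.

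The IER genes are small early response genes of varied function, and 4 rose while 1 fell. Ier3, a regulator of apoptosis in stressed cells, had 1784, 1354 and 2293 normalised reads with IRI and 3050.0, 2363 and 3297 with MK-8617, a log2 fold change of 0.70 ± 0.19 (adjusted p = 0.0269 in limma). MK 2 exceeded the highest IRI library only narrowly. Ier2, a nuclear early response protein, had 1012, 945 and 1066 against 1668, 1380.0 and 1525, with separate groups and a log2 change of 0.59 ± 0.11. Ier5l rose by 0.83 ± 0.13, from 819 ± 126 to 1447 ± 107 normalised reads, and Ier5 by 0.40 ± 0.11. Ier3ip1 matched by its name alone, since it encodes an endoplasmic reticulum protein that interacts with IER3 and is no early response gene. It fell, from 637, 651 and 801 to 502, 558 and 507 normalised reads (-0.41 ± 0.12, adjusted p = 0.0361 in limma). The group's rises numbered 2 without IRI 1, IRI 2, MK 1 or MK 3. Leaving out IRI 1 (0.71), IRI 2 (0.51), MK 1 (0.66) or MK 3 (0.60), or using FPKM (0.68), ended the call of Ier3. That of Ier5 ended without IRI 1 (0.35), IRI 2 (0.40), MK 1 (0.33) or MK 3 (0.39), and that of Ier3ip1 without IRI 1 (-0.47), IRI 3 (-0.30), MK 1 (-0.38), MK 2 (-0.46) or MK 3 (-0.39). The fall of Ier3ip1 was also not called with edgeR and TMM scaling (-0.35) or with length and GC trends removed (-0.36).

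**Figure D3:**
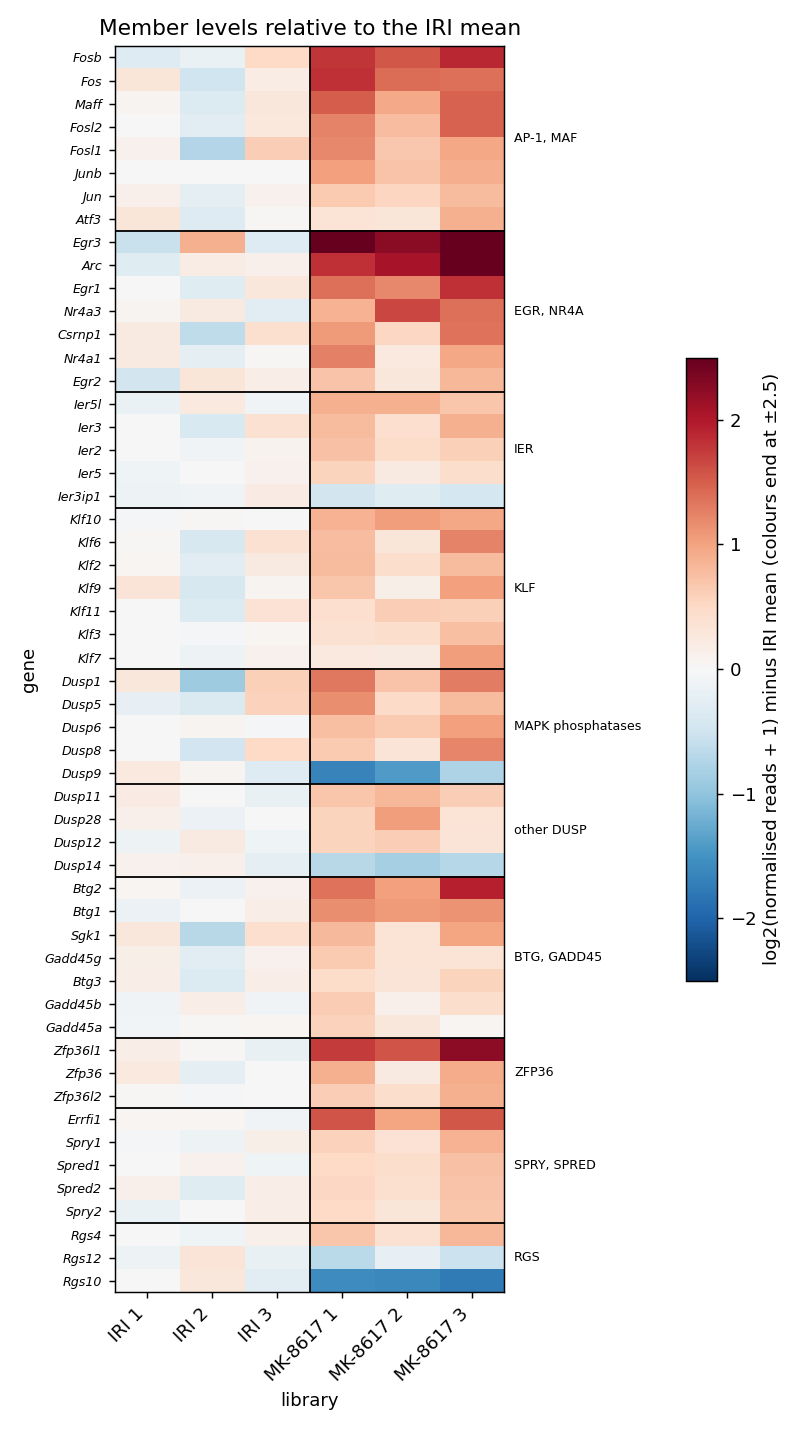
Level of each member (rows, grouped by role) in each library (columns) as log2(normalised reads + 1) minus the mean of the 3 IRI libraries, with red for higher and blue for lower and the scale ending at ±2.5. The 3 treated columns are red in most rows, and the blue rows are Ier3ip1, Dusp9, Dusp14, Rgs12 and Rgs10.

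Krüppel-like factors are zinc finger regulators of differentiation that bind GC-rich promoters. All 7 listed members had a positive log2 fold change, 4 rose, and the median was 0.62. Klf10, a TGF-beta-induced factor, was even within both groups, at 601, 638 and 632 and 1134, 1282 and 1218 normalised reads (0.95 ± 0.096, adjusted p = 0.000309 in limma), and it kept its call in every setting. Klf2, a flow-responsive factor of endothelium, had 884, 704 and 1004 against 1479, 1167 and 1478 normalised reads (0.68 ± 0.15, adjusted p = 0.0108 in limma). Emcn was the only endothelial marker of 8 in the table, and it was not past the threshold (-0.33 ± 0.12), though it was called lower without MK 3 (-0.43). Klf3, a transcriptional repressor, rose by 0.52 ± 0.12, and Klf11 by 0.55 ± 0.17.

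Klf6, an injury-induced factor of proximal tubule, was the most highly counted KLF but was just short of the threshold. It had 3125, 2309.9 and 3993 normalised reads with IRI and 5212, 3767 and 7222 with MK-8617 (0.77 ± 0.25, adjusted p = 0.0508 in limma), and MK 2 lay below IRI 3. With all 6 libraries it passed in DESeq2 (adjusted p = 0.00765), in edgeR with TMM scaling (adjusted p = 0.0471) and in limma with no filter (adjusted p = 0.0475). It also passed without MK 2 (1.00) or without IRI 3 (0.96). Klf9, a glucocorticoid-responsive factor, had 1077, 655 and 909 against 1402, 949.9 and 1764 normalised reads (0.62 ± 0.24, adjusted p = 0.0857 in limma), with overlapping groups. It passed in DESeq2 (adjusted p = 0.0335) and without MK 2 (0.87). Klf7 was at 0.50 ± 0.24 and not past it. Without MK 1 or MK 3, 2 KLF genes rose. The call of Klf11 was lost without IRI 1 (0.55), IRI 2 (0.37), MK 1 (0.61), MK 2 (0.52) or MK 3 (0.52). With all libraries it was lost with edgeR under the authors' size factors (0.52), with FPKM (0.53) and among genes of at least 5 CPM. The call of Klf2 ended without MK 1 (0.62) or MK 3 (0.62). With length and GC trends removed neither Klf3 (0.28) nor Klf11 (0.50) was called.

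MAP kinase phosphatases remove phosphate from ERK, p38 and JNK. Of 5 listed members 3 rose and 1 fell. Dusp6, which acts on ERK in the cytoplasm and is itself an ERK target, had 1048, 1098 and 1013 normalised reads with IRI and 1766, 1651 and 2144 with MK-8617, a log2 fold change of 0.81 ± 0.12 (adjusted p = 0.00148 in limma). Its call held in all 19 settings. Dusp1, the nuclear phosphatase of p38 and JNK, went from 1452, 643 and 1797 to 2959, 1949 and 2873 (1.10 ± 0.34, adjusted p = 0.0397 in limma), with IRI 2 far below the other IRI libraries. Dusp5, a nuclear ERK phosphatase, had 633, 564 and 1085 against 1625, 1022 and 1271 (0.81 ± 0.25), and its groups overlapped, since IRI 3 exceeded MK 2. Dusp8 was not past the threshold (0.74 ± 0.27, adjusted p = 0.0768 in limma), which it passed in DESeq2 (adjusted p = 0.0357) and without IRI 3 (0.98).

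Dusp9 went the other way, with 104, 91.1 and 70 normalised reads in IRI and 26.6, 32 and 51 with MK-8617, a log2 fold change of -1.28 ± 0.31 (adjusted p = 0.0152 in limma). It is a cytoplasmic ERK phosphatase best known from placenta, and it had the lowest level of these 5 genes. Only Dusp6 rose in this group without IRI 1, MK 1 or MK 3. The call of Dusp1 was lost without IRI 1 (1.24), MK 1 (0.99), MK 2 (1.29) or MK 3 (1.01), with edgeR under either scaling, with DESeq2 (1.00), with FPKM and among genes of at least 5 CPM. The call of Dusp5 was lost without IRI 1 (0.71), IRI 2 (0.63), MK 1 (0.64) or MK 3 (0.82). It was also lost with edgeR under the authors' size factors (0.78) and with FPKM (0.79). The call of Dusp9 was lost without IRI 1 (-1.16), MK 1 (-1.09) or MK 2 (-1.22).

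Among the other dual-specificity phosphatases 2 rose and 1 fell of 4. Dusp11, which acts on RNA 5′ phosphates, had 2683, 2313 and 2073 against 3799, 4169 and 3594 normalised reads, which is 0.71 ± 0.12 on the log2 scale (adjusted p = 0.00291 in limma). Dusp14 fell, from 766, 772 and 604 to 436, 401 and 433 (-0.74 ± 0.13, adjusted p = 0.00308 in limma). Both had separate groups and kept their calls in every setting. Dusp28 had 260.3, 215 and 239.7 against 349, 491 and 301 normalised reads (0.65 ± 0.19), a call lost without IRI 1 (0.71), IRI 2 (0.57), MK 1 (0.69) or MK 2 (0.45). Dusp12 was at 0.49 ± 0.19 and not past the threshold, and transcripts on the opposite strand cover 49.8% of its exon bases.

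**Figure D4:**
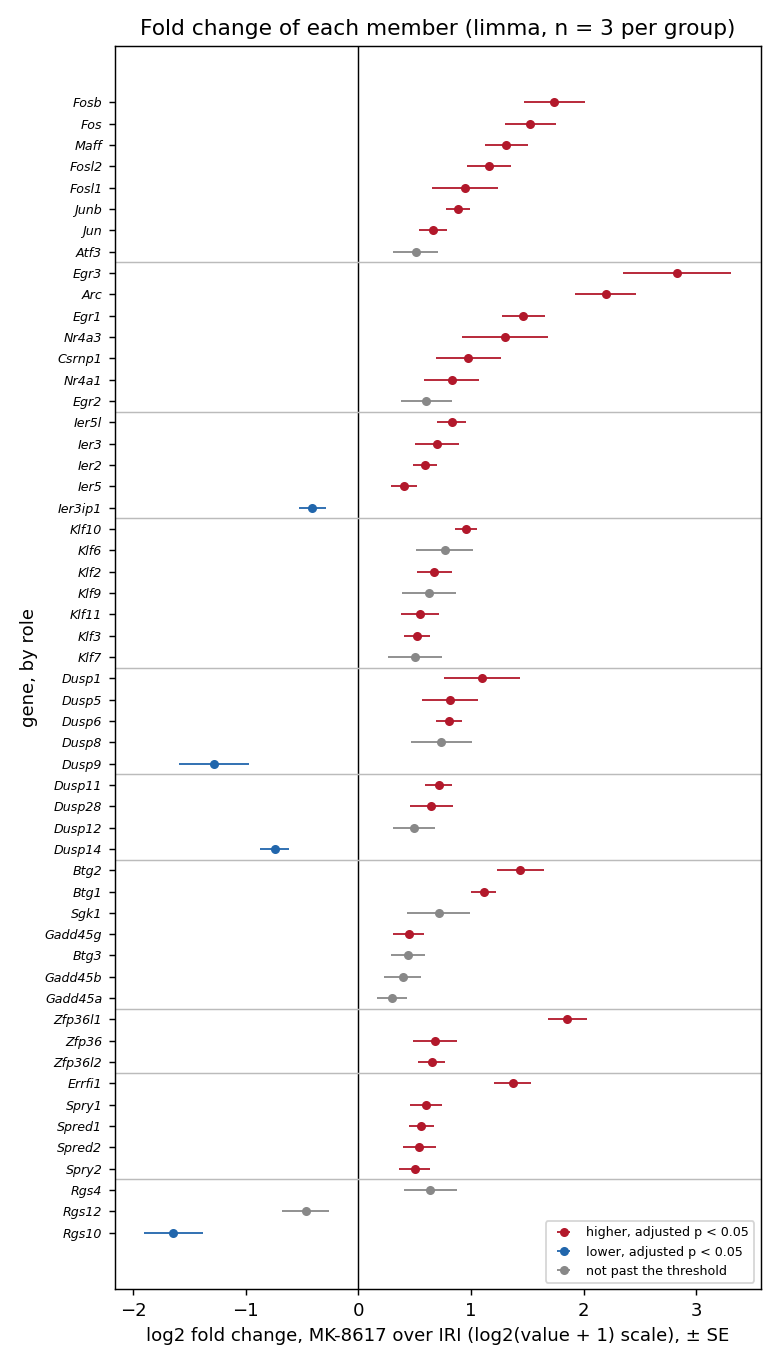
Log2 fold change of MK-8617 over IRI (horizontal axis, log2(value + 1) scale) with its SE for each member (vertical axis, by role), in red or blue where past an adjusted p of 0.05 and in grey otherwise. Points lie right of 0 for 49 of 54 members, from 0.3 for Gadd45a to 2.83 for Egr3.

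BTG, GADD45 and SGK1 proteins act in growth arrest and stress. All 7 had positive log2 fold changes, but only Btg2, Btg1 and Gadd45g rose. Btg1, a relative of Btg2, had 2290.4, 2512 and 2861 normalised reads with IRI and 5703, 5311 and 5508 with MK-8617, a log2 fold change of 1.11 ± 0.11 (adjusted p = 0.000283 in limma). Its spread was small in both groups, and the mouse annotation holds 2 named Btg1 pseudogenes that could share its reads. Gadd45g rose by 0.45 ± 0.14, a call lost without IRI 2 (0.32), MK 1 (0.35), MK 2 (0.49) or MK 3 (0.50). This call was also lost with FPKM (0.43) and among genes of at least 5 CPM. Sgk1, a kinase that regulates tubular sodium transport, had 3895, 1990.2 and 4278 against 5626, 4062 and 6408 normalised reads and was not past the threshold (0.71 ± 0.28, adjusted p = 0.0926 in limma). IRI 2 was far below the other IRI libraries, and MK 2 lay below IRI 3. Gadd45a and Gadd45b were at 0.30 ± 0.13 and 0.39 ± 0.17 and Btg3 at 0.44 ± 0.15, none past the threshold. Without IRI 3 the rises of this group numbered 5, with Sgk1 (0.92) and Btg3 (0.52) added, and without MK 3 Gadd45a passed (0.43). With all libraries Sgk1 passed in DESeq2 (adjusted p = 0.0402) and Btg3 in edgeR with TMM scaling (adjusted p = 0.0459). With length and GC trends removed Gadd45a (0.49) and Gadd45b (0.73) passed it.

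The ZFP36 proteins bind AU-rich elements, which many immediate early mRNAs carry, and speed their decay. All 3 listed members rose. Zfp36l1 (ENSMUSG00000021127, GRCm38 chromosome 12, 80107754 to 80113013) had 1428, 1304 and 1119.6 normalised reads with IRI and 4319, 3795 and 6039.8 with MK-8617. Its treated libraries were far above the IRI ones, at a log2 fold change of 1.86 ± 0.17 with a limma adjusted p of 0.00021, and the lowest value over the settings was 1.66. The antisense transcript Gm26669 covers 55.9% of its exon bases and an annotated pseudogene exists, so its count is uncertain. Zfp36l2 had 1247, 1206 and 1233 against 1872, 1675 and 2290.4 (0.65 ± 0.12). Zfp36, which encodes tristetraprolin, had 1176, 837 and 1007 against 1842, 1172 and 1904 (0.68 ± 0.20, adjusted p = 0.0309 in limma), and MK 2 lay below IRI 1. Its call was lost without IRI 2 (0.56), MK 1 (0.58) or MK 3 (0.56), and also with FPKM (0.66).

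Feedback inhibitors of receptor tyrosine kinases rose in all 5 listed members. Errfi1, an inhibitor of the EGF receptor also called MIG6, had 6201, 6141 and 5583 normalised reads with IRI and 17844, 11790.1 and 17531 with MK-8617, a log2 fold change of 1.37 ± 0.16 (adjusted p = 0.00064 in limma). Per length it had the highest level of all members, at 93.9 ± 5.72 FPKM in IRI and 244 ± 53.6 with MK-8617 (SD, n = 3). Spry1 had 709.9, 662 and 803 against 1079.9, 929 and 1317 normalised reads (0.60 ± 0.14), and Spred1 had 968, 1041 and 899 against 1372, 1319 and 1609 (0.56 ± 0.11). These 3 genes had separate groups and kept their calls in every setting. Spred2 and Spry2 rose by 0.54 ± 0.15 and 0.50 ± 0.14. Without MK 1 or MK 3 the group's rises numbered 3. The call of Spred2 was lost without IRI 2 (0.39), MK 1 (0.56) or MK 3 (0.45), and that of Spry2 without IRI 1 (0.41), MK 1 (0.50) or MK 3 (0.40).

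RGS proteins switch off G protein signalling, and of the 3 listed genes only Rgs10 was called. Rgs10, which is abundant in macrophages and microglia, fell from 96.5, 117 and 78.6 to 31.8, 31 and 27.6 normalised reads, or -1.64 ± 0.26 on the log2 scale (adjusted p = 0.00221 in limma). Macrophage markers moved with it: of 8 listed markers of 11, 7 fell and 0 rose, their summed level was 2680 to 5244 normalised reads in IRI and 1105 to 1449 with MK-8617, and Lyz2 went from 1207 ± 671 to 139 ± 58.3. The part of these cells in the value of Rgs10 was not tested. Rgs12 (-0.47 ± 0.21, adjusted p = 0.144 in limma) and Rgs4 (0.64 ± 0.24, adjusted p = 0.0757 in limma) were not past the threshold.

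Levels within a group were uneven in a shared way. IRI 2 was the lowest IRI library in 30 of 54 members, and MK 2 was the lowest treated library in 38, while replicate 2 was lowest in 33.2% of all tested genes in either group. In 25 members (46.3%) replicate 2 was lowest in both groups, against 14.9% of tested genes. MK 3 was the highest treated library in 28 members. Relative to the IRI mean, the median member stood at 0.01, -0.12 and 0.11 on the log2 scale in IRI 1 to 3 and at 0.72, 0.45 and 0.89 in MK 1 to 3. IRI 2 also had the highest summed cycling markers, 3152 normalised reads against 493 and 682 in the other IRI libraries, and the highest macrophage sum, while MK 2 was close to MK 1 in both sums. The macrophage sum was 1435, 1449 and 1105 in MK 1 to 3. The neutrophil sum and the mural and fibroblast sum were also highest in replicate 2 of both groups. The podocyte sum was lowest in replicate 2 of both groups, at 783, 661 and 788 in IRI and 1177, 1085 and 1108 with MK-8617. The proximal tubule sum was highest in IRI 2 but lowest in MK 2. Loop and distal tubule, collecting duct and endothelial sums were at neither extreme in MK 2. The 2 neutrophil markers summed to 611, 831 and 531 normalised reads in IRI 1 to 3 and to 189.5, 476 and 196 in MK 1 to 3, so MK 2 stood apart from the other treated libraries. The mural and fibroblast sums were 14346, 24043 and 21951 in IRI and 4400.4, 5621 and 5435 with MK-8617. The part of these cells in the members' levels was not tested. With both IRI 2 and MK 2 left out, a setting chosen after seeing the data, 34 members rose and 2 fell, and the median log2 fold change was 0.69.

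**Figure D5:**
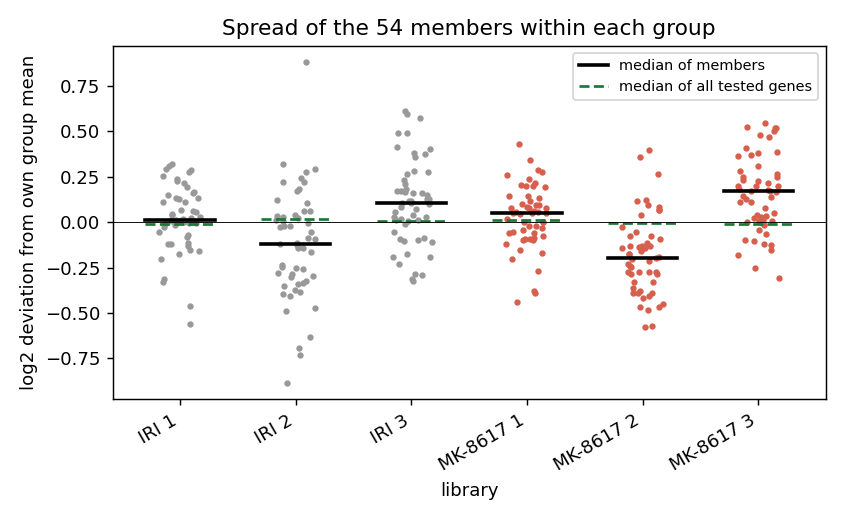
Log2 deviation of each of the 54 members from its own group's mean (vertical axis) in each library (horizontal axis), with black bars for the median of the members and dashed green bars for the median of all tested genes. The members' median is -0.12 in IRI 2 and -0.19 in MK 2 and 0.17 in MK 3, while the median of all genes stays near 0.

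The pathways that lead to these genes were described from 4 lists of other genes. Of 93 annotated genes on them 48 were in the table, and 37 rose and 4 fell. Over all tested genes calls for a rise covered 35.7% and calls for a fall 38.7%, the background to each list's count below. Among EGF receptor and ERK cascade genes 9 of 15 rose and 3 fell. Egf, the ligand made by distal tubule, had 394, 229.5 and 449 normalised reads with IRI and 2155, 1139.8 and 1757 with MK-8617, a log2 fold change of 2.24 ± 0.28 (adjusted p = 0.000803 in limma). Beside it, the loop and distal tubule markers Pvalb and Slc12a1 stood at 2.65 and -1.70, and the part of these cells in the value of Egf was not tested. Egfr, its receptor, rose by 0.77 ± 0.12, and Sos1, the exchange factor that activates RAS, by 0.90 ± 0.12. The ERK kinases split, with Map2k1 higher (0.61 ± 0.11) and Map2k2 lower (-0.72 ± 0.11). Hbegf, another ligand of the EGF receptor that was named after its values were seen, had 782, 739.6 and 663 against 1392, 1116 and 2148 normalised reads (1.04 ± 0.21). Erbb4 (-1.25 ± 0.25) and Hras (-0.52 ± 0.11), likewise named after their values were seen, fell. Mapk3, which encodes ERK1, was not past the threshold (-0.25 ± 0.096). With length and GC trends removed the rises of this list numbered 7, as Rasa1 (0.30) and Braf (0.18) were lost.

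In the JNK and p38 cascades 5 of 8 listed genes rose and 1 fell. Among the rises was Mapk8, which encodes a JNK (0.47 ± 0.13), named after its values were seen. Its call was lost in 7 of 19 settings, and with length and GC trends removed it stood at 0.086. Mapkapk2, the p38-activated kinase that phosphorylates ZFP36, rose by 0.84 ± 0.10, and Map3k5, a stress-activated kinase called ASK1, by 0.93 ± 0.17. Map2k4 and Map3k1 rose by 0.50 ± 0.099 and 0.48 ± 0.10, and Map2k6, an activator of p38, fell from 124, 164 and 104 to 56.3, 61.9 and 69.1 normalised reads (-1.03 ± 0.24), a call lost without MK 1 (-0.96). Of 7 SRF cofactor and CREB family genes 6 rose and 0 fell, but the rises numbered 2, Crem and Crtc2, without MK 1 and with length and GC trends removed. They numbered 3 without IRI 1, MK 2 or MK 3 and 4 in limma-voom. Crem and Crtc2, a CREB relative and a CREB coactivator, rose by 0.83 ± 0.13 and 0.78 ± 0.12, and the myocardin-related cofactor Mkl2 by 0.37 ± 0.12. Atf2 (0.41 ± 0.10) and Creb1 (0.39 ± 0.10) also rose. With length and GC trends removed neither was called, and Creb1 turned to -0.043. The call of Atf2 also ended without IRI 1 (0.38), MK 1 (0.42) or MK 3 (0.33), and that of Creb1 without IRI 3 (0.33), MK 1 (0.36) or MK 2 (0.40). Mkl2 lost its call in 13 of 19 settings, and Crtc1, another CREB coactivator (0.42 ± 0.14), in 14.

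Other early response genes, outside the symbols that chose the members, rose in 17 of 18 listed cases, with 0 lower and a median log2 fold change of 1.17. This list held 31 annotated genes. Over all tested genes 35.7% rose, and the median was -0.31. The rises numbered 14 without MK 1 or without MK 3. Hes1 was lost without MK 1 (0.41), and Tob2 without MK 1 (0.51) or MK 3 (0.54). Phlda1 was lost without IRI 1 (0.46), MK 1 (0.52) or MK 3 (0.46), and Ptgs2 without MK 2 (1.49) or MK 3 (1.04). Nfkbiz, an inducible NF-kappa-B cofactor, had 902, 928 and 883 against 2444, 2219 and 2150.1 normalised reads (1.33 ± 0.094, adjusted p = 6.49e-05 in limma). Myc rose by 1.36 ± 0.12, the salt-inducible kinase gene Sik1 by 1.33 ± 0.14, the stress factor Cebpd by 1.56 ± 0.18 and the matrix protein gene Thbs1 by 1.19 ± 0.14. Their groups did not overlap, which held for all 18 genes, against 92.5% of tested genes. The exception to the rises was Per1, a clock gene (0.79 ± 0.27, adjusted p = 0.0544 in limma), whose IRI 2 was at 979 normalised reads against 2067 and 2115 in the other IRI libraries. Per1 was past the threshold in DESeq2 (adjusted p = 0.0195), with length and GC trends removed (0.75), and without IRI 1 (0.97), IRI 2 (0.43) or IRI 3 (0.98).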

How the data were processed

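The deposited signal values are gene read counts scaled by the authors with a size factor for each library. Dividing them by the smallest step gave whole numbers for 100% of values (tolerance 0.001), equal to the only raw count column deposited (IRI replicate 3) in 7340 of 7340 genes. FPKM, on which levels were compared between genes, was deposited by the authors per library. The authors also deposited their own log2 fold change, p-value and adjusted p-value for each gene in the same table. Per the submitters' processing notes, alignment used HISAT2 2.0.5 and counting featureCounts 1.5.0-p3. The comparison used DESeq2 1.20.0, per the same notes. They name a human build, GRCh38, while the identifiers are mouse. Annotation here is GENCODE M21 (GRCm38).

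Library totals were derived from FPKM, recovered reads and exon lengths. Genes were filtered by filterByExpr of edgeR 4.0.16, which kept 6961, and tested with limma 3.58.1 (trend, robust, R 4.3.3) on log2(value + 1). Benjamini-Hochberg adjustment ran over the 18811 genes implied by the deposited adjusted p-values. The added 1 understates changes of low genes. The limma fit was tested on simulated data. Alternatives used DESeq2 1.42.0, edgeR, limma-voom, other scalings and filters, and left-out libraries. Members and lists were chosen with earlier results of these data known. Values are given in full for Egr1, Btg2, Junb, the 3 most counted members of each role and the largest called changes, and of each pathway list up to 5 called genes with the smallest adjusted p are named. Another 13 columns were empty. A floor of 3 reads per library is 0.154 to 0.178 CPM, for counting error only.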

Additional observations from a re-analysis of the deposited data

How the results depend on the processing

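No member reversed its direction in any of 19 alternative settings, while the pathway gene Creb1 turned to -0.043 with length and GC trends removed, and the members' median log2 fold change ranged from 0.58 to 0.79. Of the 37 rises 21 were called in every setting. The number of rises was 38 with no filter, 40 with DESeq2, 33 with edgeR under the authors' size factors, 37 with edgeR under TMM and 27 with FPKM (pseudocount 0.1). Leaving out 1 library at a time gave 23 to 39 members higher and 2 to 4 lower, 29 to 39 pathway genes higher and 3 to 4 lower, and 3412 to 5144 calls over all genes. Restricted to means of 5 CPM or more, 2 members fell, and Dusp9 and Rgs10 were below that level and not tested. With both replicates 2 left out, chosen after seeing the data, 2970 genes were called over the table, 2 members fell and 2 pathway genes fell, with fewer samples behind each test. The JNK and p38 genes that rose were then 2 and the SRF and CREB genes 2. With a replicate block 42 members rose and 4 fell, the added rises being Klf6, Klf9, Dusp8, Sgk1 and Btg3, and 5257 genes were called. Per1 was also called with the block, and Crtc1 was not. Deviations of same-numbered libraries correlated at 0.02, 0.12 and 0.11 over 6961 genes. The lowest is near 0, so the numbers were not taken to pair samples. Over all genes each library still correlated best with its own number, a hint from the data and not from the design. For IRI 1 this was by 0.0206 with MK 1 against 0.0198 with MK 2. Over the members the hint did not hold, as IRI 3 correlated best with MK 1 (0.33, against 0.11 with MK 3). Length and GC trends removed left 37 higher and 3 lower, with a median of 0.73 against -0.21 over all genes. Depth limits Egr3 and Nr4a3 most, each with under 15 normalised reads in every IRI library.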
